A study of Mus musculus with 12 samples.

Results

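The genes described here encode 10 subunits and close relatives of AP-1, a family of dimeric transcription factors, and were taken by gene symbol: Jun, Junb, Jund, Fos, Fosb, Fosl2, Atf2, Atf3, Batf and Maff. All 10 were measured, each by 1 probe set, among 18820 genes on 12 one-colour whole-transcript arrays. The arrays came from primary hepatocytes and whole liver of male C57BL/6 mice aged 7 to 8 weeks. The 4 groups of 3 arrays were hepatocytes of JNKΔhepa mice, hepatocytes of WT mice, livers of JNKΔhepa mice and livers of WT mice, and each of 6 mice gave both a hepatocyte and a liver sample. JNKΔhepa mice carry floxed Jnk1 (Mapk8) deleted by a Cre recombinase under the albumin promoter with an enhancer of alpha-fetoprotein. They also lack Jnk2 (Mapk9) in every cell, and liver cells in which that Cre was never active keep Jnk1. WT mice were their Jnk1f/fJnk2+/+ littermates, so the floxed Jnk1 alleles are shared by all groups, and the labels name no injury or drug treatment.

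AP-1 factors are pairs of proteins joined by a leucine zipper, usually a Jun protein with a Fos, ATF or Batf partner, that bind short palindromic sites in DNA. JNK is named for phosphorylating the transactivation domain of Jun, and it also phosphorylates Atf2 and, to differing degrees, Jund. Fos, Fosb, Junb, Jun and Atf3 are immediate early genes, whose transcripts appear within minutes of growth factor or stress signals (partial hepatectomy is the textbook setting in liver). The arrays measure transcripts, not phosphorylated protein.

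The start regions of 4 of these genes are shown, all with transcripts that stood higher in hepatocytes than in liver of both genotypes. Junb stood higher too and is not printed. Jun is known to act on its own promoter. The regions come from RefSeq (GRCm38.p6) and run from 250 bases before the annotated start to 50 after it, in the direction of the gene. The Jun window is chr4:95052173-95052472 (minus strand), the Fos window chr12:85473640-85473939 (plus strand), the Atf3 window chr1:191183284-191183583 (minus strand) and the window of the 2nd annotated start of Maff chr15:79347270-79347569 (plus strand). Capitals mark exact matches on either strand to TGANTCA (the AP-1 site, TRE), TGACGTCA (the cyclic AMP element, CRE), TGACATCA (the variant known from the Jun promoter), the CArG box bound by serum response factor, and TATAAA. Sites that differ in a letter or lie outside the window are not marked, so a window without a match does not show that the gene lacks the site.
Jun: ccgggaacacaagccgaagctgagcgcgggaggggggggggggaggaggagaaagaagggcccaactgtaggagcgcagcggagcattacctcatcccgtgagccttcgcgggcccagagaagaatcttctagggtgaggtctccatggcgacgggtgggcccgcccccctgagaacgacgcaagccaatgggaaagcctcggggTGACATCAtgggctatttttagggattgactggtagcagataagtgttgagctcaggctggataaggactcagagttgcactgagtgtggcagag
Fos: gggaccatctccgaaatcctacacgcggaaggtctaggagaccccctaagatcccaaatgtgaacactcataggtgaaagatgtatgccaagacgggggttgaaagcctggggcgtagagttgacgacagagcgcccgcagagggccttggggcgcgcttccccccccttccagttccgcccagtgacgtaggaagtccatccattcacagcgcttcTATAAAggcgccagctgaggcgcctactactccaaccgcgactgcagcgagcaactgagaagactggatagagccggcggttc
Atf3: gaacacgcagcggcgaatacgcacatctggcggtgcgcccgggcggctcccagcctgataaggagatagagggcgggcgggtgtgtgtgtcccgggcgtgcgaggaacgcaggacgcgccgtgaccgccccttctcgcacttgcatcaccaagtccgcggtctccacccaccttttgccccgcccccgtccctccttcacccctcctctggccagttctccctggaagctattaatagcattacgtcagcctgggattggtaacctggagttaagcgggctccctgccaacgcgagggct
Maff: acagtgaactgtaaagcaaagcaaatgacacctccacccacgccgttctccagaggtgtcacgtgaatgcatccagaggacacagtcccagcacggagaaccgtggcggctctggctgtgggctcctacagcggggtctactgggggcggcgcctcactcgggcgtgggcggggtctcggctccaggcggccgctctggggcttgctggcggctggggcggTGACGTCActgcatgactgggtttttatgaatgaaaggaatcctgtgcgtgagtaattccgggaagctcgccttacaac
With the start base counted as 0, the Jun window holds TGACATCA at -45 to -38, the Fos window TATAAA at -33 to -28 and the Maff window TGACGTCA at -29 to -22. Of the annotated starts of Maff only this one holds TGACGTCA, and the others are not printed. The Atf3 window holds none of these letters. Of 32851 windows of this length, 3.62% hold TGACATCA, 1.79% TGACGTCA, 7.81% TGANTCA, 1.63% a CArG box and 13.6% TATAAA. Among the other members, Junb holds TATAAA at 0 to 5, the 3rd Maff window holds TGACATCA at -45 to -38, and Jund, Fosb, Fosl2, Atf2, Batf and the 1st Maff window hold no match.

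The deposited values are log2 signals after RMA, a background correction and quantile normalisation with a summary per probe set. The array medians were 3.22 to 3.28 in hepatocytes and 4.09 to 4.12 in liver, which is what a separate normalisation of each tissue would give; no label says how it was done. Genotypes were therefore compared within a tissue on the deposited values, and tissues on values whose quantiles were aligned over the 12 arrays. The table has no detection calls, so a reading below the median of its array is called dim. Where a group has dim arrays, the size of a fold is not exact. Mapk9 read 2.62, 2.57 and 2.29 in JNKΔhepa hepatocytes and 8.10, 7.74 and 8.05 in WT hepatocytes, and 2.85, 2.33 and 3.02 in JNKΔhepa livers and 8.64, 8.69 and 8.59 in WT livers, as the genotype labels say. Mapk8 read 4.95 to 5.01 in JNKΔhepa hepatocytes and 5.51 to 5.66 in WT hepatocytes, and its log2 change was -0.61 there (SE 0.0762, limma adjusted p = 0.00183) and -0.40 in liver (adjusted p = 0.027). Replicates 1, 2 and 3 are given in that order throughout, and levels of different genes are not set against each other because each probe set has its own scale.

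The first question was whether AP-1 transcripts differ between genotypes in hepatocytes and in liver. Jun fell in JNKΔhepa mice in both preparations, by 1.79-fold in hepatocytes and 1.67-fold in liver, and was the member that passed the test. Jund, Junb and, in hepatocytes, Atf3 had values below 0 without passing, and Fosl2 had a value above 0 in hepatocytes. Of the 10 members, 0 rose and 1 fell in hepatocytes and the same counts held in liver (limma, Benjamini-Hochberg adjusted p under 0.05). Over all genes 0.84% passed in either direction in hepatocytes (0.473% lower, 0.367% higher) and 0.925% in liver (0.367% lower, 0.558% higher). The members' median log2 change was -0.30 in hepatocytes and -0.20 in liver, against -0.0018 and 0.0155 over all genes.

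**Figure D1:**
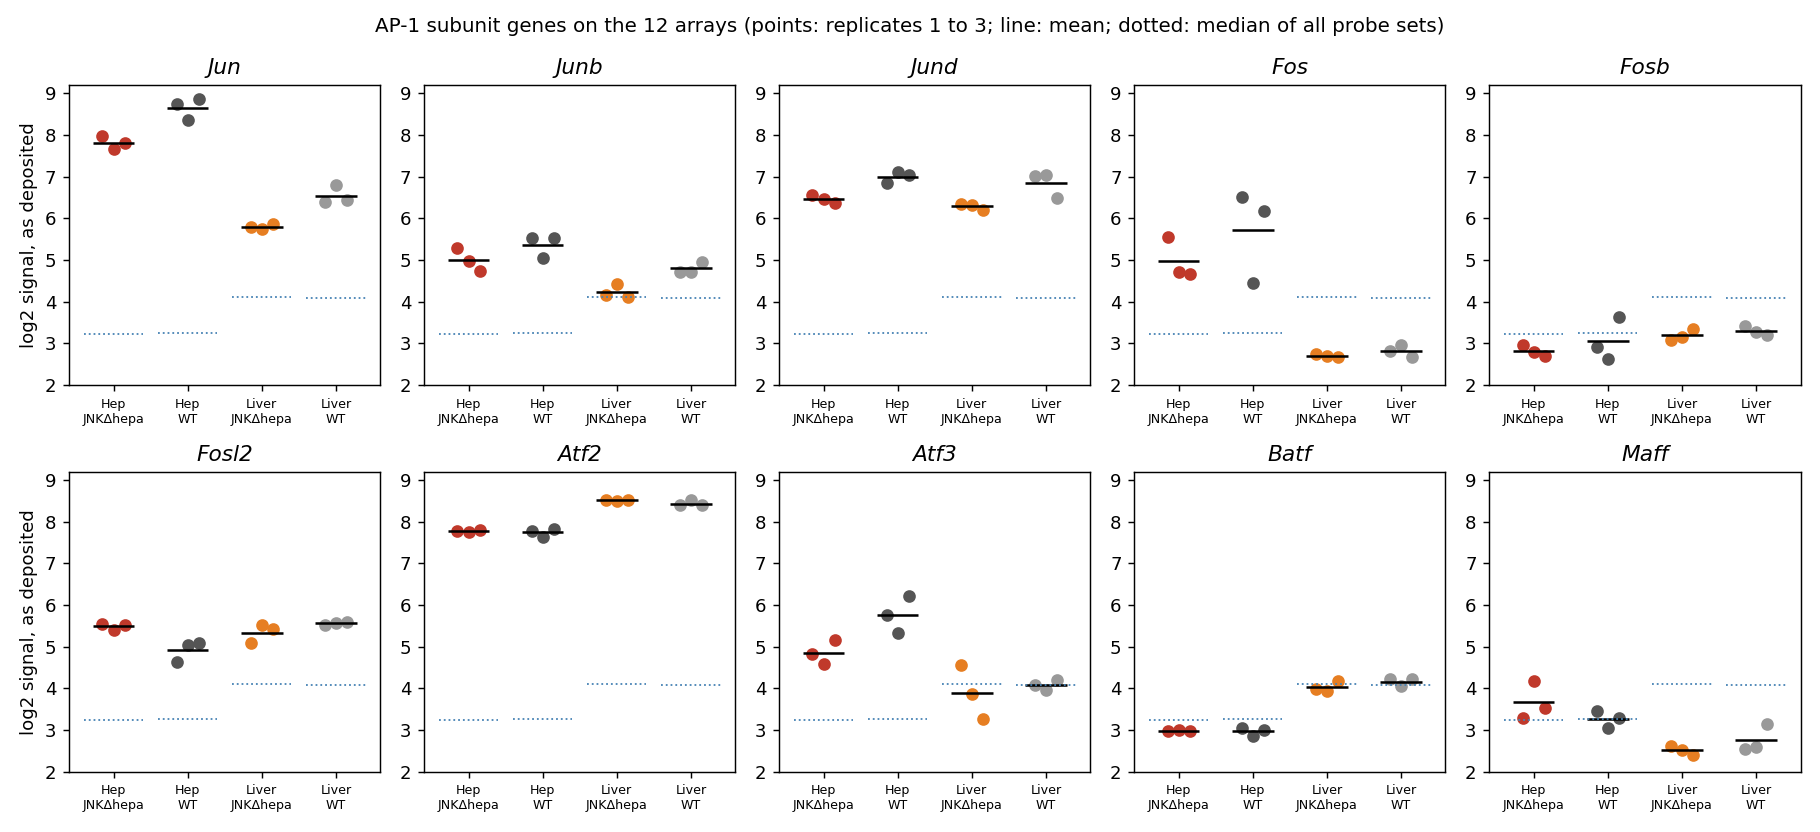
Deposited log2 signal (y axis) of the 10 genes in the 4 groups, with a point per array (replicates 1 to 3 from left to right), a line at the mean and a dotted line at the median of all probe sets. Jun sits lower in JNKΔhepa than in WT in both preparations and higher in hepatocytes than in liver, while Fos in liver lies below the dotted line on all 6 arrays.

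Jun, the founding Jun protein and the substrate that gave JNK its name, read 7.98, 7.66 and 7.81 in JNKΔhepa hepatocytes and 8.74, 8.36 and 8.86 in WT hepatocytes. All JNKΔhepa arrays lay below all WT arrays. Its log2 change was -0.84 (SE 0.14, limma adjusted p = 0.0135). In liver Jun read 5.79, 5.75 and 5.86 in JNKΔhepa and 6.38, 6.79 and 6.45 in WT, again without overlap. The log2 change there was -0.74 (SE 0.14, limma adjusted p = 0.0264). The difference between both effects was -0.0997 (SE 0.198, 95% interval -0.53 to 0.33, limma adjusted p = 0.959), so an unequal effect was not detected within that interval. Both calls depended on the arrays used: the liver call was lost without WT replicate 2 (log2 change -0.62, adjusted p = 0.103) or without JNKΔhepa replicate 1 (-0.74, 0.0944), 2 (-0.72, 0.0931) or 3 (-0.77, 0.0686). The hepatocyte call was lost without JNKΔhepa replicate 2 (-0.76, 0.0706) or 3 (-0.84, 0.061), without WT replicate 1 (-0.80, 0.0704) or 3 (-0.74, 0.0614), and when the 6 hepatocyte arrays were fitted alone (-0.84, 0.0622).

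Jund, a Jun protein present in most resting cells, read 6.57, 6.47 and 6.37 in JNKΔhepa hepatocytes and 6.86, 7.11 and 7.04 in WT hepatocytes. Its liver values were 6.35, 6.33 and 6.20 in JNKΔhepa and 7.01, 7.05 and 6.48 in WT. The genotypes did not overlap in either preparation, and in liver WT replicate 3 was the WT array nearest to the JNKΔhepa arrays. The log2 change was -0.53 in hepatocytes (SE 0.136, limma adjusted p = 0.1) and -0.55 in liver (SE 0.136, adjusted p = 0.087), neither past the threshold. Without WT liver replicate 3 it was -0.74 in liver (adjusted p = 0.00604), and the hepatocyte change of -0.53 then passed too (0.0200), because all groups share the estimate of the spread. With array weights the liver change was -0.58 (adjusted p = 0.025).

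Junb, an immediate early Jun protein that is a weaker activator than Jun, read 5.28, 4.98 and 4.75 in JNKΔhepa hepatocytes and 5.52, 5.04 and 5.53 in WT hepatocytes, where the genotypes overlapped. Its liver values were 4.16, 4.42 and 4.12 in JNKΔhepa and 4.72, 4.71 and 4.96 in WT, without overlap. The JNKΔhepa liver readings lay near the medians of their arrays, at percentiles 50.7, 53.1 and 50.1. Junb had a log2 change of -0.36 in hepatocytes (SE 0.158, limma adjusted p = 0.373) and of -0.56 in liver (SE 0.158, adjusted p = 0.131).

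Fos, the partner that gives the Jun-Fos dimer its name, read 5.55, 4.71 and 4.66 in JNKΔhepa hepatocytes and 6.52, 4.45 and 6.18 in WT hepatocytes. WT replicate 2 was the lowest of these 6 arrays, and the WT standard deviation of 1.11 was larger than the difference between genotypes. Between genotypes the log2 value differed by -0.74 (SE 0.403, limma adjusted p = 0.506). Without WT hepatocyte replicate 2 it was -1.38 (SE 0.22, adjusted p = 0.00986). That array was the lowest of its group for 8 of the 10 members, and for 35.3% of all genes. In liver Fos was dim on all 6 arrays, at 2.75, 2.70 and 2.68 in JNKΔhepa and 2.81, 2.96 and 2.67 in WT, with a log2 change of -0.10 (SE 0.403, adjusted p = 0.955).

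Fosb, a Fos protein induced with Fos, was dim on nearly every array: 2.96, 2.80 and 2.70 in JNKΔhepa hepatocytes, 2.91, 2.61 and 3.63 in WT hepatocytes, 3.09, 3.16 and 3.34 in JNKΔhepa livers, and 3.42, 3.27 and 3.20 in WT livers. Only WT hepatocyte replicate 3 reached the median of its array. The genotypes overlapped in both preparations, with log2 changes of -0.23 in hepatocytes (limma adjusted p = 0.7) and -0.10 in liver (adjusted p = 0.905).

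Fosl2, which encodes Fra-2, a Fos protein without the strong activation domain of Fos, had a value above 0 in hepatocytes that did not pass the threshold. It read 5.55, 5.41 and 5.52 in JNKΔhepa hepatocytes and 4.64, 5.05 and 5.09 in WT hepatocytes, so that all JNKΔhepa arrays lay above all WT arrays. In liver it read 5.08, 5.51 and 5.43 in JNKΔhepa and 5.51, 5.56 and 5.60 in WT, where the nearest arrays differed by 3e-05. The log2 change was 0.57 in hepatocytes (SE 0.131, limma adjusted p = 0.0676) and -0.22 in liver (SE 0.131, adjusted p = 0.546). The hepatocyte effect minus the liver effect was 0.79 (SE 0.185, 95% interval 0.38 to 1.19). Its unadjusted p was 0.001, the smallest of the 10 members and the 49th of 18820 genes, and its adjusted p was 0.38. Without JNKΔhepa liver replicate 1 the hepatocyte change of 0.57 had an adjusted p of 0.0487.

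Atf2, a constitutively expressed bZIP factor that JNK and p38 phosphorylate, was nearly constant. It read 7.78, 7.76 and 7.79 in JNKΔhepa hepatocytes and 7.78, 7.63 and 7.82 in WT hepatocytes, and 8.52, 8.50 and 8.52 in JNKΔhepa livers and 8.40, 8.51 and 8.40 in WT livers. The 95% interval of the log2 change was -0.13 to 0.20 in hepatocytes (limma adjusted p = 0.91) and -0.0885 to 0.25 in liver (adjusted p = 0.766).

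Atf3, a stress-induced factor that represses as a homodimer, read 4.83, 4.58 and 5.15 in JNKΔhepa hepatocytes and 5.77, 5.33 and 6.21 in WT hepatocytes, without overlap. Its log2 change was -0.92 (SE 0.281, limma adjusted p = 0.173), the value farthest below 0 among the members in hepatocytes, and did not pass. In liver Atf3 read 4.57, 3.86 and 3.26 in JNKΔhepa and 4.08, 3.97 and 4.20 in WT, with 2 of 3 arrays dim in each genotype. The JNKΔhepa livers spanned the WT livers on both sides, with a log2 change of -0.19 (SE 0.281, adjusted p = 0.868).

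Batf, an AP-1 factor best known in lymphocytes and dendritic cells, read 2.97, 2.99 and 2.98 in JNKΔhepa hepatocytes and 3.04, 2.87 and 3.01 in WT hepatocytes, all dim. Its liver values were 3.99, 3.95 and 4.19 in JNKΔhepa and 4.22, 4.06 and 4.22 in WT, and the genotypes overlapped in both preparations (log2 change 0.00806 in hepatocytes, limma adjusted p = 0.987, and -0.12 in liver, adjusted p = 0.642). Maff, a small Maf protein without an activation domain, read 3.29, 4.17 and 3.53 in JNKΔhepa hepatocytes and 3.46, 3.05 and 3.28 in WT hepatocytes. In liver it read 2.63, 2.53 and 2.41 in JNKΔhepa and 2.54, 2.59 and 3.15 in WT, all dim. Its log2 change was 0.40 in hepatocytes (SE 0.21, limma adjusted p = 0.48) and -0.24 in liver (SE 0.21, adjusted p = 0.732), and the genotypes overlapped in both.

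**Figure D2:**
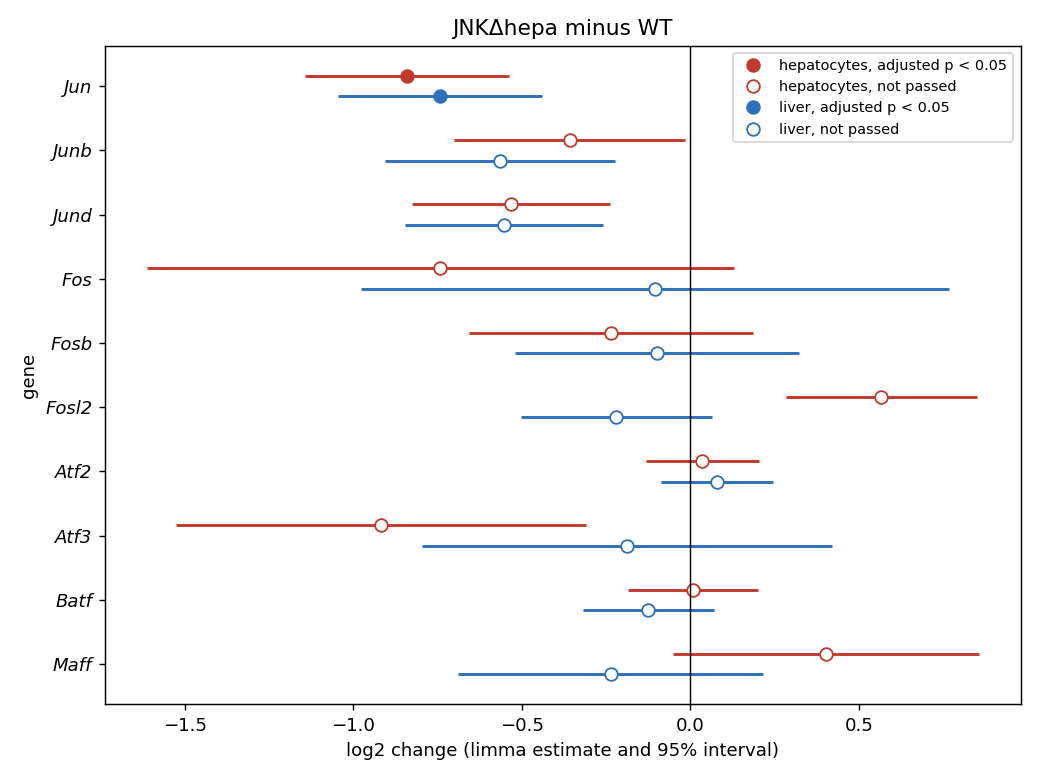
Log2 change of JNKΔhepa minus WT (x axis) for each gene in hepatocytes (upper, red) and liver (lower, blue), as limma estimate with its 95% interval. Filled points passed the adjusted threshold. Jun is filled in both preparations, and the 2 intervals of Fosl2 lie apart, one above 0 and the other around a value below 0.

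The genotypes were free of overlap in 4 of 10 members in hepatocytes (Jun, Jund, Fosl2, Atf3), against 14.7% of all genes. In liver there were also 4 (Jun, Junb, Jund, Fosl2), against 20.4% of all genes. At an unadjusted p under 0.05 there were 5 members in hepatocytes (12.6% of all genes) and 3 in liver (12.5%). No member passed in the test of unequal genotype effects (0 of 10 with limma, 1 at an unadjusted p under 0.05), where 2 of 18820 genes passed (0.0106%) and 7.22% had an unadjusted p under 0.05.

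Markers of other liver cells were set beside these values. The 6 Kupffer cell and macrophage markers had a mean log2 level of 4.90 to 5.44 on JNKΔhepa hepatocyte arrays and 5.39 to 6.08 on WT hepatocyte arrays. All 6 had values below 0 (median -0.77) and 0 passed. Clec4f, a lectin of Kupffer cells, had a log2 change of -0.75 (SE 0.184, limma adjusted p = 0.088). The 6 endothelial markers had a mean level of 6.48 to 6.92 in JNKΔhepa and 6.96 to 7.23 in WT, and all 6 lay below 0 (median -0.52, 0 passed). The 6 stellate cell and fibroblast markers had 4.27 to 4.69 in JNKΔhepa and 4.65 to 4.90 in WT, 5 of them below 0. Hepatocyte markers had 12.3 to 12.4 in JNKΔhepa and 12.2 to 12.4 in WT. In liver the Kupffer markers ran from 7.42 to 7.60 in JNKΔhepa and 7.30 to 7.97 in WT, and the endothelial markers from 8.75 to 8.87 in JNKΔhepa and 8.63 to 8.81 in WT. The stellate cell and fibroblast markers did not overlap in liver, at 6.73 to 6.89 in JNKΔhepa and 7.03 to 7.17 in WT, with all 6 below 0 (median -0.20) and 0 past the threshold. Lrat, the enzyme that stores vitamin A in stellate cells, had the smallest p of them there (log2 change -0.61, limma adjusted p = 0.0767). Fewer cells of a type and less RNA per cell cannot be told apart in such samples, and the part of these markers in the values of Jun, Junb, Jund, Fos and Atf3 was not tested.

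Genes around AP-1 were counted in lists. Of 10 measured relatives of the family (such as Batf3, Jdp2, Mafg and Maf), 0 passed in either preparation. Their median log2 change was 0.0799 in hepatocytes and -0.07 in liver. Batf2, Batf3, Jdp2, Creb5, Mafa and Nrl were dim on every array of both preparations, so the count says little about them. Maf, a large Maf factor, had the smallest p in hepatocytes (log2 change -0.51, limma adjusted p = 0.156), and Mafg, a small Maf protein, in liver (-0.24, adjusted p = 0.301). Of 11 factors that regulate transcription of Fos and Jun, such as serum response factor and its cofactors, 0 passed, with medians of -0.0994 and 0.0356. Mrtfb, an actin-regulated cofactor of serum response factor, had the smallest p in both, at -0.35 in hepatocytes (adjusted p = 0.117) and -0.24 in liver (0.296).

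Of 4 genes for ubiquitin ligases or their adaptors that act on Jun protein, 0 passed, with medians of 0.052 in hepatocytes and 0.139 in liver. Det1, an adaptor of the Cop1 ligase, had the smallest p in hepatocytes (log2 change 0.22, limma adjusted p = 0.495) and Fbxw7, a substrate receptor, in liver (0.26, adjusted p = 0.261). Of 20 genes known as AP-1 targets in other settings, 0 passed, with medians of -0.0134 and 0.05. Most of the list was dim on every array of both preparations: Mmp3, Mmp9, Mmp10, Mmp13, Timp1, Plau, Plaur, Ccl2, Il6, Fasl and Lif. The count and the medians therefore say little about these genes. Vim, the mesenchymal intermediate filament vimentin, had the smallest p in hepatocytes (-0.60, adjusted p = 0.0554), beside the stellate cell, endothelial and Kupffer markers given above. Egfr, the receptor of epidermal growth factor, had the smallest p in liver (-0.48, adjusted p = 0.116). Egfr and 3 other genes also had the smallest p of their lists for unequal genotype effects, without passing: Egfr at 0.80 (adjusted p = 0.36), Mafa at 0.49 (0.596), Atf1 at 0.46 (0.611) and Fbxw7 at -0.21 (0.776). The readings of Mafa were dim on every array.

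The 5 genes whose pattern was most like that of Jun were ranked by Pearson r over the 12 arrays after each tissue's mean was subtracted, among 9409 genes above the median level. They were Cebpe (r = 0.969), Ccser2 (0.961), Fgfr1 (0.957), Camk2d (0.954) and the pseudogene Adh6-ps1 (0.951). The arrays share the genotype difference, so r describes it together with the spread within groups. Camk2d, a subunit of the calcium/calmodulin-dependent kinase CaMKII, had a log2 change of -1.27 in hepatocytes (limma adjusted p = 6.99e-05) and -0.87 in liver (0.00114). Fgfr1, a fibroblast growth factor receptor, had -0.49 in hepatocytes (adjusted p = 0.0845) and -0.66 in liver (0.0201). Adh6-ps1 had -4.47 in hepatocytes (adjusted p = 6.99e-05) and -4.80 in liver (3.75e-05). Cebpe had -0.71 (0.0408) and -0.64 (0.0615), and Ccser2, at -0.23 (0.234) and -0.14 (0.504), passed in neither.

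The second question was how the same genes differ between isolated hepatocytes and whole liver of each genotype. Jun, Junb, Fos, Atf3 and Maff rose in hepatocytes of both genotypes, by 2.31-fold to 11.7-fold in WT with aligned quantiles (log2 changes of 1.21 for Maff to 3.54 for Fos, against 0.50 to 2.90 as deposited, where the median of all genes was -0.58 in WT and -0.60 in JNKΔhepa). These 5 of 10 members passed under all 3 scalings of the tissues, against 0.324% of all genes. Jund rose in both genotypes and Fosl2 in JNKΔhepa mice with aligned quantiles, but neither did on the values as deposited. Atf2 and Fosb did not pass, and Batf fell in WT. With aligned quantiles 7 members rose and 0 fell in JNKΔhepa, against 14.3% and 15.6% of all genes (29.9% in either direction). In WT 6 rose and 1 fell, against 13.6% and 14.8% (28.4%). On the aligned values, hepatocyte and liver arrays were free of overlap, in either direction, in 10 of 10 members in JNKΔhepa and 7 of 10 in WT, against 47.2% and 42.3% of all genes. In JNKΔhepa, Atf2 and Batf lay lower in hepatocytes, and the changes of Atf2 and Fosb turned sign with the scaling. The members' median log2 change was 1.26 in JNKΔhepa and 1.01 in WT, against 0.0137 and 0.0155 over all genes. Both tissue comparisons use the arrays of the genotype comparisons, and the results are not independent of those.

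With aligned quantiles, Jun averaged 8.11 ± 0.137 in JNKΔhepa hepatocytes and 5.38 ± 0.066 in JNKΔhepa livers, and 8.94 ± 0.248 in WT hepatocytes and 6.22 ± 0.228 in WT livers (log2 signal, SD, n = 3 each). The log2 change was 2.72 in JNKΔhepa (6.60-fold, SE 0.137, limma adjusted p = 1.85e-07) and 2.72 in WT (6.61-fold, SE 0.137, adjusted p = 3.45e-07). As deposited the changes of Jun were 2.02 and 2.11. Its p ranked 7th of 18820 genes in JNKΔhepa and 4th in WT. The order of the group means was WT hepatocytes, JNKΔhepa hepatocytes, WT liver and JNKΔhepa liver, and no neighbouring groups overlapped on this scale.

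Fos averaged 5.35 ± 0.472 in JNKΔhepa hepatocytes and 2.45 ± 0.026 in JNKΔhepa livers, and 6.07 ± 1.09 in WT hepatocytes and 2.53 ± 0.125 in WT livers (SD, n = 3 each). Fos rose 7.49-fold in JNKΔhepa (2.91 on the log2 scale, SE 0.395, limma adjusted p = 0.000156). In WT it rose 11.7-fold (3.54, SE 0.395, limma adjusted p = 4.48e-05). Its liver readings were dim, so these sizes are not exact. On the values as deposited the log2 changes were 2.27 and 2.90. Neither the hepatocyte groups nor the liver groups of Fos differed beyond their spread.

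Atf3 averaged 5.25 ± 0.259 in JNKΔhepa hepatocytes and 3.49 ± 0.595 in JNKΔhepa livers, and 6.14 ± 0.411 in WT hepatocytes and 3.66 ± 0.11 in WT livers (SD, n = 3 each). The rise was 3.37-fold in JNKΔhepa (1.75 on the log2 scale, limma adjusted p = 0.00032). In WT it was 5.55-fold (2.47, limma adjusted p = 2.89e-05). Dim liver arrays leave these sizes inexact, and as deposited the log2 changes of Atf3 were 0.96 and 1.69. The difference between these effects, taken on the deposited values, was -0.73 (SE 0.397, adjusted p = 0.746), so it was not shown that the genotypes differ in it. Junb averaged 5.38 ± 0.269 in JNKΔhepa hepatocytes and 3.79 ± 0.141 in JNKΔhepa livers, and 5.73 ± 0.278 in WT hepatocytes and 4.39 ± 0.133 in WT livers. It rose 3.02-fold in JNKΔhepa (limma adjusted p = 1.26e-05) and 2.54-fold in WT (adjusted p = 5.96e-05), log2 changes of 1.59 and 1.34 that were 0.77 and 0.57 as deposited.

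Maff averaged 4.10 ± 0.446 in JNKΔhepa hepatocytes and 2.28 ± 0.0978 in JNKΔhepa livers, and 3.68 ± 0.239 in WT hepatocytes and 2.47 ± 0.327 in WT livers (SD, n = 3 each). It rose 3.54-fold in JNKΔhepa (1.82 on the log2 scale, limma adjusted p = 4.43e-05) and 2.31-fold in WT (1.21, adjusted p = 0.00111). All liver arrays and 1 WT hepatocyte array were dim, so these sizes are not exact, and as deposited the log2 changes of Maff were 1.14 and 0.50. The difference between these effects was 0.64 on the deposited values (SE 0.296, adjusted p = 0.69).

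Jund rose 1.87-fold in JNKΔhepa (log2 change 0.91, SE 0.138, limma adjusted p = 0.000371) and 1.76-fold in WT (0.81, SE 0.138, adjusted p = 0.000946) with aligned quantiles. On the values as deposited the changes were 0.18 (adjusted p = 0.223) and 0.16 (0.278). Fosl2 averaged 5.85 ± 0.058 in JNKΔhepa hepatocytes and 4.91 ± 0.234 in JNKΔhepa livers, and 5.31 ± 0.19 in WT hepatocytes and 5.20 ± 0.0431 in WT livers (SD, n = 3 each). It rose 1.91-fold in JNKΔhepa (0.93, SE 0.12, limma adjusted p = 0.000106), while in WT its log2 change was 0.12 (SE 0.12, adjusted p = 0.503). As deposited, these changes were 0.16 (adjusted p = 0.275) and -0.63 (0.000656), so the direction in WT turned with the scaling.

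Fosb had log2 changes of 0.35 in JNKΔhepa (limma adjusted p = 0.222) and 0.47 in WT (0.106), and of -0.38 and -0.24 as deposited, with dim readings in both tissues. Without WT hepatocyte replicate 2 the WT change was 0.70 (adjusted p = 0.0138), and without WT hepatocyte replicate 3 the change of 0.35 in JNKΔhepa had an adjusted p of 0.0399. With array medians centred Fosb passed in both (0.50, adjusted p = 0.0379, and 0.59, 0.0186). Atf2 had -0.14 in JNKΔhepa (adjusted p = 0.179) and -0.0994 in WT (0.348), turning to 0.14 in both with array medians centred, and to -0.74 (adjusted p = 2.76e-06) and -0.69 (5.22e-06) as deposited. Batf fell by 0.38 on the log2 scale in WT (SE 0.0885, adjusted p = 0.00647) and had -0.22 in JNKΔhepa (adjusted p = 0.0828), sizes that are not exact. Its values were below 0 under all 3 scalings and passed in both genotypes as deposited.

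**Figure D3:**
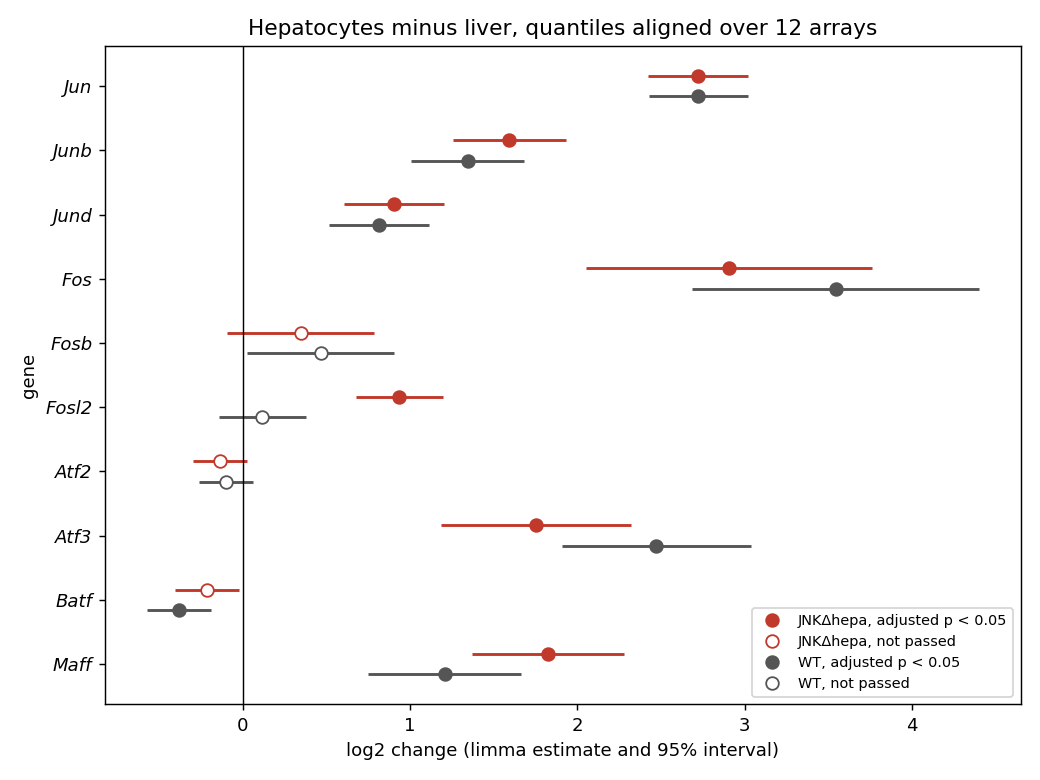
Log2 change of hepatocytes minus liver (x axis) with quantiles aligned, for JNKΔhepa (upper, red) and WT (lower, grey), as limma estimate with its 95% interval and filled points past the adjusted threshold. Jun lies at 2.72 in both genotypes, and Fosl2 is filled in JNKΔhepa and open in WT.

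**Figure D4:**
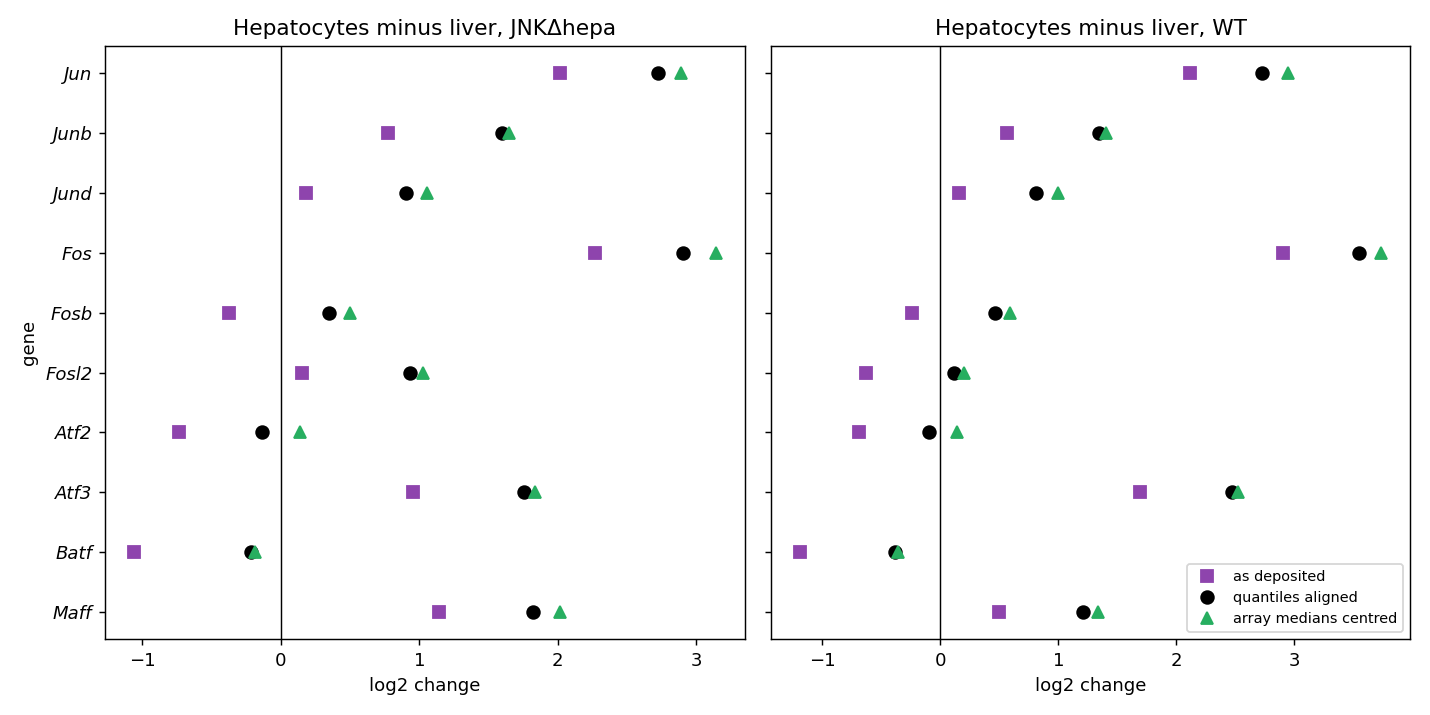
Log2 change of hepatocytes minus liver (x axis) for JNKΔhepa (left) and WT (right) under the 3 scalings of the tissues. Jun, Junb, Fos, Atf3 and Maff lie above 0 under each, whereas Fosb, Fosl2 in WT and Atf2 lie on both sides of 0.

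Most markers of Kupffer cells, endothelium, stellate cells and lymphocytes fell with isolation of hepatocytes, while those of cholangiocytes went both ways. With aligned quantiles the mean level of the Kupffer cell markers was 5.27 to 5.80 in JNKΔhepa hepatocytes and 7.07 to 7.27 in JNKΔhepa livers, and 5.75 to 6.42 in WT hepatocytes and 6.99 to 7.66 in WT livers. Of 6 such markers 5 fell in each genotype, as did 6 of 6 endothelial and 6 of 6 stellate cell markers. Of 4 lymphocyte markers 3 fell in JNKΔhepa and 4 in WT, beside the decrease of Batf. Of 4 cholangiocyte markers 3 fell and 1 rose in each genotype. The one that rose was Sox9 (0.75, limma adjusted p = 0.00185, in JNKΔhepa and 0.43, 0.0409, in WT). Of 2 neutrophil markers 1 fell in JNKΔhepa and 2 in WT. Krt7, Epcam, Cd8a, S100a8 and S100a9 were dim on every array of both tissues, and Krt19, Cd3e and Cd79a on every hepatocyte array. The sizes of their changes are therefore not exact. The erythroid marker Alas2 rose in JNKΔhepa (0.64, adjusted p = 0.0189) and had 0.39 in WT (0.127). As deposited 0 of these cholangiocyte, neutrophil and erythroid markers rose. Clec4f, Stab2, a scavenger receptor of sinusoidal endothelium, and Dcn, a proteoglycan of stellate cells, had log2 changes of -1.84, -1.47 and -2.48 in JNKΔhepa and -1.17, -1.12 and -1.87 in WT (limma adjusted p up to 0.000512). Of 6 hepatocyte markers 0 passed in JNKΔhepa and Ttr rose in WT (0.21, adjusted p = 0.0415) with aligned quantiles. With array medians centred 6 of 6 rose in both genotypes, and as deposited 1 fell in JNKΔhepa and 2 fell in WT, with Ttr at 0.0813 in WT (adjusted p = 0.322). The counts of all genes under each scaling are given in the next paragraph. The part of all these markers in the changes of the AP-1 genes was not tested.

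Among 20 AP-1 target genes, 3 rose and 7 fell in JNKΔhepa, and 0 rose and 5 fell in WT (limma, aligned quantiles), against 14.3% and 15.6% of all genes in JNKΔhepa and 13.6% and 14.8% in WT. Most of these 20 genes were dim on every array, as listed above. Among those that fell, Plau, Il6 and Lif in JNKΔhepa and Plau and Mmp3 in WT were dim throughout. With array medians centred 5 rose and 6 fell in JNKΔhepa and 4 rose and 4 fell in WT, and as deposited 1 rose and 16 fell in JNKΔhepa and 0 rose and 18 fell in WT. Of all 18820 genes, 9406 rose and 1959 fell in JNKΔhepa with medians centred, and 8774 rose and 1852 fell in WT. As deposited 116 genes rose and 16166 fell in JNKΔhepa, and 113 rose and 16118 fell in WT. The median log2 change of the 20 target genes was -0.18 in JNKΔhepa and -0.12 in WT with aligned quantiles, 0.15 and 0.20 with array medians centred, and -0.73 and -0.64 as deposited. Vim fell by 2.14 on the log2 scale in JNKΔhepa (adjusted p = 5.38e-07) and by 1.80 in WT (2.2e-06). Tgfb1, the cytokine TGF-beta, had log2 changes of -1.59 (adjusted p = 2.42e-05) and -1.23 (0.00023), and Plau, urokinase, had dim values of -0.86 (3.9e-05) and -0.62 (0.000585). These 3 genes stayed below 0 and past the threshold under all 3 scalings, beside the decreases of the stellate cell and Kupffer cell markers.

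Among 10 AP-1 relatives, 1 rose and 3 fell in JNKΔhepa, and 1 rose and 2 fell in WT with aligned quantiles, against the same shares of all genes. In JNKΔhepa the balance turned with the scaling, as it did over all genes, while in WT more relatives fell than rose under each scaling. With array medians centred 3 rose and 1 fell in JNKΔhepa and 1 rose and 2 fell in WT. As deposited 0 rose and 9 fell in each. Maf fell by 1.15 on the log2 scale in JNKΔhepa (limma adjusted p = 8.13e-05) and by 0.60 in WT (0.00746), below 0 under all 3 scalings. Batf3 (-0.48 and -0.79) and Nrl (0.52 and 0.40), both dim, also passed, and Nrl turned to -0.0795 in WT as deposited. Among 11 regulators of Fos and Jun transcription, 0 rose and 1 fell in JNKΔhepa, and 3 rose and 2 fell in WT with aligned quantiles. With array medians centred 6 rose and 1 fell in JNKΔhepa and 5 rose and 1 fell in WT, and as deposited 0 rose and 10 fell in JNKΔhepa and 0 rose and 9 fell in WT. As deposited 16166 of all 18820 genes fell in JNKΔhepa and 16118 in WT. With medians centred 9406 and 8774 of them rose. Mef2c, a MADS-box factor, fell by 1.34 in JNKΔhepa (adjusted p = 0.000128) and had -1.12 in WT (0.000591), and stayed below 0 under all 3 scalings. Elk1 (0.47, adjusted p = 0.00737) and Elk4 (-0.26, 0.0207), which join serum response factor on DNA, passed in WT with aligned quantiles, and Elk1 turned to -0.25 as deposited. Of the 4 genes acting on Jun protein 0 passed in either genotype with aligned quantiles. Beside the all-gene counts just given, 2 of 4 rose in each with array medians centred and 4 of 4 fell in each as deposited. The smallest p with aligned quantiles was that of Itch in JNKΔhepa (0.0833, adjusted p = 0.536) and of Fbxw7 in WT (0.23, 0.0844).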

How the data were processed

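RNA of 6 mice, hepatocytes and liver of each, was measured on 12 arrays. The deposited table holds log2 values per probe set, made by the authors with RMA, per the submitters' processing notes, which give no version. Of 35556 probe sets 21218 had 1 symbol, 1881 several, and 12457 are not named here, and the brightest over 12 arrays stood for each of 18820 genes. RefSeq (GRCm38.p6) updated 0 symbols and supplied promoter windows for all 10 members.

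limma 3.58.1 under R 4.3.3 (with statmod 1.5.0) estimated the 4 group means over all arrays, two-sided, with 8 residual and 4.76 prior degrees of freedom and Benjamini-Hochberg adjustment over all genes. The fit was tested on simulated data. Tissue comparisons used quantile normalisation over the 12 arrays, because the log2 medians differed by -0.855 (hepatocytes minus liver). Precision is limited by 3 arrays a group, and array data give no counting depth. Arrays of a group correlated at 0.9865 to 0.9928. The members, lists, dim rule and the rule for naming genes (all members, then per list and comparison up to 3 genes past the threshold or the 1 with the smallest p) were chosen with earlier results of these data known. Mouse identifiers in the labels pair hepatocytes and liver, and deviations of the pairs from their group means correlated at r = -0.0158 to 0.0772. Plots used matplotlib 3.10.9. Alternatives were other scalings, dropped arrays, blocks, array weights, a trended spread, a filter on dim genes, mean probe sets and single-tissue fits.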

Additional observations from a re-analysis of the deposited data

How the results depend on the processing

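The number of members past the threshold was 1 for genotype in each preparation. It was 2 in liver with array weights, 0 in liver with the replicate number as a block, and 0 in hepatocytes when the 6 hepatocyte arrays were fitted alone. Leaving out single arrays gave 0 to 2 members in liver and 0 to 2 in hepatocytes, 0 for unequal genotype effects, and 7 to 8 for hepatocytes against liver in JNKΔhepa and 7 to 8 in WT. With the mouse as a random or fixed replicate block these counts were 7 and 7 for the tissues and 0 for unequal effects, and the random block kept 1 and 1 for genotype, so the pairing by mouse changed no call of a member count. Replicate numbers do not pair the genotypes, whose mice differ (r = -0.0221 to 0.0555 between same-numbered arrays), and the block by number gave Jun an adjusted p of 0.0525 in liver. As deposited, Fosb turned to -0.38 in JNKΔhepa and -0.24 in WT and Fosl2 to -0.63 in WT for hepatocytes against liver, and with array medians centred Atf2 turned to 0.14 in both. Without single arrays, genotype values ran from -0.52 to 0.13 for Atf3 in liver, and in hepatocytes from -0.45 to 0.0546 for Fosb, -0.0206 to 0.0755 for Atf2 and -0.0443 to 0.0433 for Batf. The hepatocyte effect minus the liver effect ran from -0.25 to 0.00276 for Jun, -0.0818 to 0.20 for Jund and -0.35 to 0.15 for Fosb.

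The scaling of the tissues moved the median of all genes to -0.60 in JNKΔhepa and -0.58 in WT as deposited, and to 0.28 and 0.26 with array medians centred. The share of higher genes among those past the threshold was 47.7% in JNKΔhepa and 47.9% in WT with aligned quantiles, 0.712% and 0.696% as deposited, and 82.8% and 82.6% with medians centred, of 5619, 16282 and 11365 genes in JNKΔhepa and 5336, 16231 and 10626 in WT. After the filter on dim genes 10786 genes and 9 members remained, without Fosb, and 3520 genes passed for hepatocytes against liver in JNKΔhepa and 3423 in WT. For genotype, 174 genes passed in liver (80 to 225 without single arrays, 408 with array weights) and 158 in hepatocytes (61 to 387, and 77 in the 6 hepatocyte arrays alone), and 2 for unequal effects (1 to 7, and 4 with array weights). The cause of these differences was not tested, apart from the scalings and dropped arrays themselves. Signals near or below the median of an array limit what can be said of Fosb, Batf and Maff, of Fos and Atf3 in liver, and of Junb in JNKΔhepa liver.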
